A study of Drosophila melanogaster with 17 samples.

Results

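In RNA captured from mushroom bodies of Drosophila melanogaster, 118 probe sets of 114 genes read lower after the larva and stayed low. They were chosen on their measured values. A probe set entered when it carried 1 gene symbol and every array at 0 h and at 5 h of puparium formation read below the lowest larval array. Both pupal means also had to lie at least 0.8 log2 under the larval mean, with less than 0.4 log2 between them. Of 13966 probe sets that are not controls, 12443 carried 1 symbol. Every 0 h value lay below every larval value in 613 of these, and every 5 h value did so as well in 471. Of the 471, 172 were lower by at least 0.8 log2 at both pupal times. Among these 172, 118 met the last condition, 28 read higher again at 5 h and 26 read lower still. The 118 are 0.948% of the probe sets with 1 symbol. Since all comparisons among the 3 times were used to choose them, their changes are given as a description and no p-value is attached to a member.

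The series follows mushroom body neurons over the onset of axon pruning on Affymetrix arrays. Larvae of the third instar, taken at -18 h from puparium formation, gave 7 arrays. White prepupae, which define 0 h, gave 7, and pupae aged 5 h gave 3. All groups share the genotype yw;UAS-mCD8::GFP/+;;OK107-GAL4, so GFP-marked cell bodies carried the same transgenes at each time. OK107-GAL4 is an enhancer trap at the eyeless locus, active in mushroom body neurons and in some other cells of the brain. Each array carried RNA from 40 pooled captures of about 100 cell bodies each, cut by laser from frozen sections, and about 22 ng of RNA passed through 2 rounds of amplification. The labels place the larvae early in that instar in one sentence and call them wandering in another. They call the replicates biological without giving the number of animals in a pool, so the spread between arrays may be partly technical. The marker gene ey, a mushroom body transcription factor, averaged 8.97 ± 0.31 log2 at -18 h (SD, n = 7), 8.66 ± 0.23 at 0 h (n = 7) and 8.75 ± 0.06 at 5 h (n = 3). It is the eyeless gene of the driver's own locus and 1 of 22 measured mushroom body markers, of which 1 was a member. The array mean of the 22 averaged 5.79 ± 0.12, 5.56 ± 0.07 and 5.36 ± 0.06 in the same order of times. Their median change against -18 h was -0.14 at 0 h and -0.24 at 5 h, with -0.02 and -0.06 over all genes. Whether the share of these neurons was steady was not tested. The neurons prune larval axon branches after a pulse of the steroid ecdysone and later grow adult ones. They are cholinergic, and dopamine and cyclic AMP signalling in them serves olfactory learning. Glycolysis splits glucose to pyruvate, which mitochondria oxidise or cells turn into lipid, and glycogen is the stored form of that glucose. In bulk RNA of this kind fewer cells of a type and less RNA per cell cannot be told apart.

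By roles assigned after the members were known, 13 of the 118 probe sets belonged to carbon, lipid and amino acid metabolism, 11 to the ribosome and its assembly, 10 to mitochondrial respiration and carriers and 8 to glycolysis. A further 6 belonged to transmitter synthesis, uptake and receptors, 5 to the vacuolar proton pump and 3 to glycogen, while 22 had bare annotation names and 15 shared no role. The median member changed by -1.25 log2 at 0 h and by -1.15 at 5 h against -18 h, while the median of all 13966 probe sets changed by -0.02 and -0.07. At 0 h 96 of the 118 probe sets were at least 2-fold lower than at -18 h. At both pupal times 74 were at least 2-fold lower and 17 at least 4-fold lower. By limma's moderated test all 118 were called lower at 0 h, where 11.9% of all probe sets were, and 117 were called lower at 5 h, where 9.06% were. In either direction 25.5% of all probe sets were called at 0 h and 20.0% at 5 h. The exception at 5 h was Sgs7. Between 5 h and 0 h no member was called, with 3.77% of all probe sets called in either direction and 12 members at an unadjusted p under 0.05. These counts restate the choice of the members and nothing is read from them.

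The level of the group was even from array to array. The median over the 118 probe sets lay between 7.18 and 7.55 log2 in the larval arrays with a median array of 7.31. It lay between 5.67 and 5.93 in the 0 h arrays with a median array of 5.84, and read 5.99, 5.95 and 5.82 in the 5 h arrays. No pupal array came within 1 log2 of a larval one, while the median of all probe sets stayed between 4.32 and 4.43 on every array. The rule puts each member's pupal arrays below its larval ones, so the separation of these medians is given as a description. The spread of the members was wider than that of the array as a whole. Their median SD was 0.23 at -18 h, 0.21 at 0 h and 0.13 at 5 h, against 0.18, 0.16 and 0.10 over all probe sets.

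**Figure D1:**
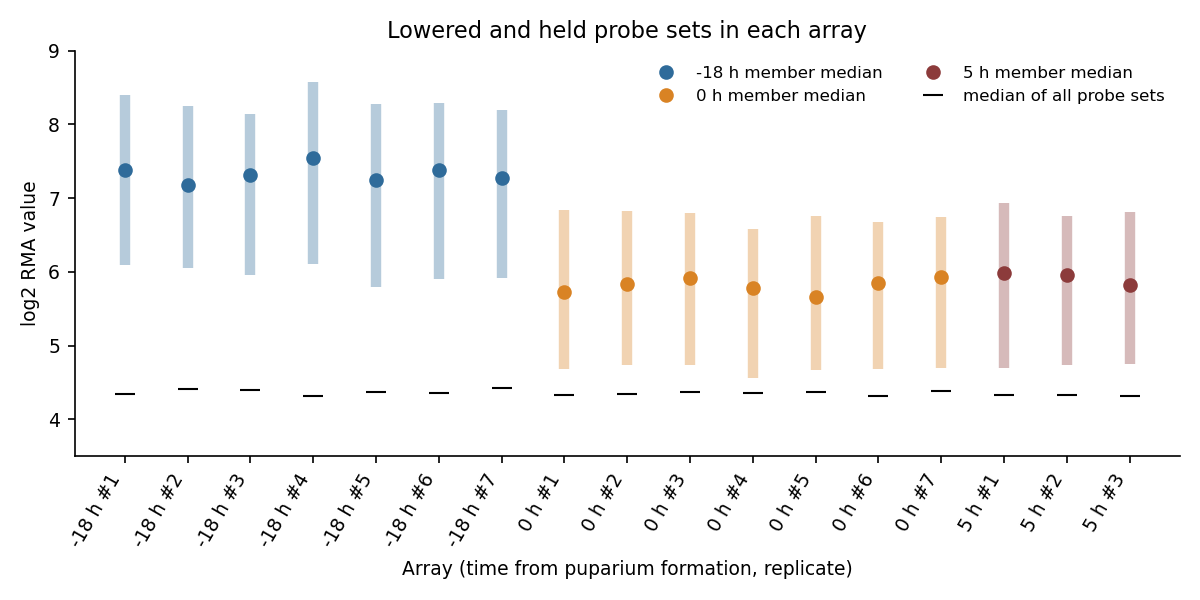
Log2 RMA value of the 118 lowered and held probe sets (vertical axis) in each of the 17 arrays (horizontal axis, by time and replicate number). Points are the median over members, thick bars run between their quartiles, and black dashes are the median of all probe sets. The larval medians sit between 7.18 and 7.55 and the pupal ones between 5.67 and 5.99, while the dashes stay between 4.32 and 4.43.

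The distance between the groups differed widely among members. The gap between the lowest larval array and the highest pupal array had a median of 0.63 log2 and ran up to 3.59 in Pglym78. It was as small as 0.0086 in Sgs7 and 0.047 in Hex-A. In 5 members, Ac76E, Hex-A, Cyp9f2, rib and CG1090, both pupal means lay under 3.40 log2, the lower quartile of all values. No detection limit was computed, so their folds may be lower bounds. In GstE2 and CG8301 that holds for 1 of the pupal means. More members read higher at 5 h than at 0 h than read lower, 76 against 42, with a median difference of 0.07 log2. The median over all probe sets was -0.04. The rule limited this difference, so the split is given as a description.

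**Figure D2:**
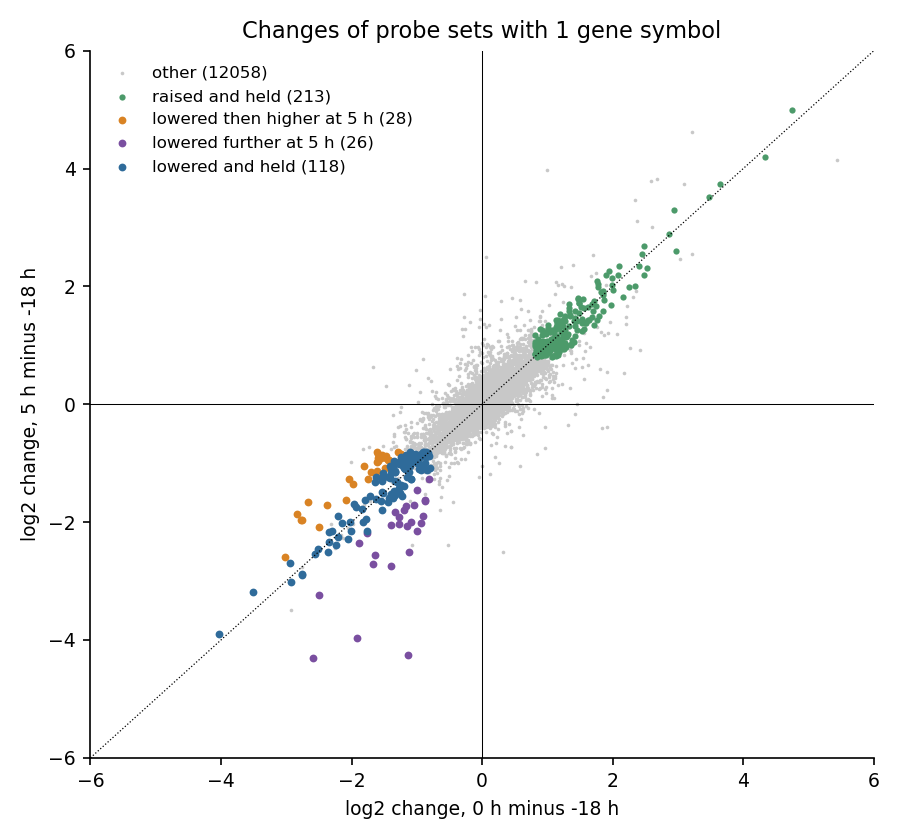
Log2 change at 0 h (horizontal axis) and at 5 h (vertical axis), both against -18 h, for the 12443 probe sets with 1 gene symbol. Blue points are the 118 lowered and held probe sets, which lie along the dotted line of equal change. Orange points are the 28 that read higher again at 5 h, purple points the 26 that read lower still, and green points the 213 that were raised and held by the same rule turned upward.

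The deepest changes of single probe sets were those of Pglym78 and Ald1. They belong to glycolysis, where all 8 enzymes of the list with a probe set of their own were members. The list was drawn up with earlier results of these data known, so this count is a description. Pglym78, a phosphoglycerate mutase, read 10.30 to 10.63 log2 in the larval arrays (median 10.42) and 6.14 to 6.71 in the 0 h arrays (median 6.41). At 5 h it read 6.38, 6.57 and 6.66. The pupal arrays all lay more than 3 log2 below the lowest larval array, a difference in means of 16.3-fold at 0 h and 14.9-fold at 5 h. Ald1, the aldolase that cleaves fructose bisphosphate, read 9.07 to 10.22 at -18 h (median 10.06), 5.94 to 6.91 at 0 h (median 6.42) and 6.93, 6.57 and 6.64 at 5 h. Larval array 6 was its lowest at -18 h, and it was 11.4-fold lower at 0 h and 9.12-fold lower at 5 h. Pgi, which converts glucose 6-phosphate to fructose 6-phosphate, read 9.76 to 10.12 at -18 h (median 9.80), 7.16 to 7.54 at 0 h (median 7.28) and 7.33, 7.15 and 7.49 at 5 h. Its 0 h and 5 h arrays overlapped, and all of them lay more than 2 log2 below the lowest larval array.

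The remaining glycolytic enzymes were lower by smaller amounts. Pgk, phosphoglycerate kinase, changed by -2.20 log2 at 0 h and -1.90 at 5 h. Enolase (Eno) changed by -1.96 and -1.70, and phosphofructokinase (Pfk), which commits sugar to the pathway, by -1.94 and -1.74. Gapdh1, a glyceraldehyde 3-phosphate dehydrogenase, changed by -1.34 and -1.53 and was the only enzyme of the 8 to read lower at 5 h than at 0 h. Hex-A, the hexokinase that starts the pathway, changed by -1.03 and -0.85 at a level close to background. Over the 8 genes the array means ran from 8.22 to 8.70 at -18 h, from 5.95 to 6.28 at 0 h and from 6.18 to 6.31 at 5 h. The median change was -2.08 at 0 h and -1.82 at 5 h.

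The array's own GAPDH control probe sets, which are no members, moved the same way. The one near the 3-prime end averaged 11.40 ± 0.14 at -18 h, 9.43 ± 0.24 at 0 h and 9.45 ± 0.10 at 5 h (SD, n = 7, 7 and 3). The middle one averaged 9.63 ± 0.10, 6.68 ± 0.24 and 6.99 ± 0.02 in the same order of times, and the 5-prime one 5.91 ± 0.17, 4.56 ± 0.17 and 4.73 ± 0.17. The 3 positions along the transcript were thus lower to different extents, most at the middle.

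Glycogen turnover formed another deep group of 3 genes, with a median change at 0 h of -2.34 against -2.08 in glycolysis. Glyp, the phosphorylase that releases glucose from glycogen, read 6.82 to 7.59 at -18 h (median 7.04), 4.48 to 5.17 at 0 h (median 4.82) and 4.77, 4.61 and 5.02 at 5 h. Pgm1, the phosphoglucomutase that links glycogen to glycolysis, read 7.34 to 7.85 (median 7.61), 5.00 to 5.63 (median 5.13) and 5.42, 5.42 and 5.36 at the same times. Both were about as low at 5 h as at 0 h, with changes of -2.35 and -2.34 for Glyp and of -2.34 and -2.17 for Pgm1. Glys, glycogen synthase, changed by -1.45 and -1.23.

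Of 11 other genes of trehalose, glycogen and sugar transport that were no members, limma called 6 lower and 0 higher at 0 h. Their median change there was -0.22, against -0.02 over all probe sets. Of all 10844 genes 1323 were called lower and 1642 higher at 0 h. The branching enzyme AGBE averaged 5.42 ± 0.18 in the 0 h arrays and 6.36 ± 0.16 in the larval arrays (SD, n = 7 each, limma adjusted p = 4.54e-08) and 5.81 ± 0.12 at 5 h (n = 3). Treh, the trehalase that frees glucose from the blood sugar of insects, took another course. It fell by 1.01 log2 at 0 h (limma adjusted p = 3.15e-05) and rose by 1.58 at 5 h against 0 h (adjusted p = 3.47e-05), to 0.58 above -18 h (adjusted p = 0.0473). Treh was called higher at 5 h than at 0 h, where 2.36% of all probe sets were.

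Members around the citric acid cycle lay mostly on its entry and exit points. PCB, pyruvate carboxylase, read 7.76 to 8.37 at -18 h (median 8.10), 6.19 to 6.81 at 0 h (median 6.51) and 6.60, 6.50 and 6.39 at 5 h. Both probe sets of Men, a malic enzyme that makes pyruvate and NADPH, were members, with changes at 0 h of -1.53 and -0.91. Gdh, glutamate dehydrogenase, changed by -1.40 and -1.52 at 0 h and 5 h, and Got2, an aspartate aminotransferase, by -1.13 and -1.05. Among the listed genes of the cycle and of pyruvate entry, 16 were no members, with a median change of -0.37 at 0 h. Of these 16, 8 were called lower and 2 higher at 0 h, where 1323 and 1642 of all 10844 genes were. The 2 that rose were Idh, an isocitrate dehydrogenase, by 0.76 (limma adjusted p = 5.90e-08), and ScsbetaG, a subunit of succinyl-CoA ligase, by 0.93. Men-b, the second malic enzyme, fell by 0.93 at 0 h (adjusted p = 2.24e-06) and again by 1.08 at 5 h against 0 h (adjusted p = 0.000118).

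Fatty acid synthesis was represented by its main steps. The enzymes are ATPCL and AcCoAS, which make acetyl-CoA, ACC, which makes malonyl-CoA, and FASN1, the fatty acid synthase. AcCoAS changed by -1.23 at 0 h and -1.55 at 5 h, ATPCL by -1.04 and -0.95, and FASN1 by -1.02 and -0.89. The member probe set of ACC changed by -1.40 and -1.10. With larval arrays 1 and 4 as the only larval arrays it changed by -1.99 and -1.70. Acbp2, an acyl-CoA binding protein, read 6.37 to 7.74 at -18 h, with larval arrays 4, 5 and 6 highest, 4.27 to 4.89 at 0 h and 4.82, 4.83 and 4.91 at 5 h. Its change at 0 h of -2.30 was -2.96 among the arrays with the lower spike-in signal. Among the 21 lipid genes that were no members, 6 were called lower and 2 higher at 0 h. For all 10844 genes these counts were 1323 and 1642.

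Among mitochondrial genes the members were carriers of the inner and outer membrane and a few respiratory subunits. Mpcp2, the phosphate carrier, read 8.53 to 9.29 at -18 h (median 8.69), 6.94 to 7.45 at 0 h (median 7.05) and 7.27, 7.24 and 7.33 at 5 h. sesB, which exchanges ADP for ATP, read 10.49 to 11.32 log2 in larval arrays (median 10.72), 9.11 to 9.85 in 0 h arrays (median 9.56) and 9.49, 9.37 and 9.30 in 5 h arrays. Every pupal array lay below every larval one, as the rule requires. The mean changes at 0 h were -1.71 in Mpcp2 and -1.27 in sesB. Their relatives Mpcp1 and Ant2 changed by -0.09 and -0.11 at 0 h (limma adjusted p = 0.583 and 0.394). Both probe sets of porin, the channel of the outer membrane, were members, with changes at 0 h of -1.21 and -0.85. The member subunits of cytochrome c oxidase were COX4 (-1.20 at 0 h, -0.96 at 5 h) and COX5B (-1.34 and -0.96). sun, the epsilon subunit of ATP synthase, changed by -1.63 and -1.24.

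Many other respiratory subunits were lower at 0 h and lay closer to the larval level at 5 h. Of 50 listed genes of oxidative phosphorylation that were no members, 41 were called lower and 0 higher at 0 h, with a median change of -0.75. At 5 h 30 of them were still called lower than at -18 h, with a median change of -0.42. At 5 h 16 of the 50 were called higher than at 0 h and 0 lower, with a median difference of 0.31 log2. Among all 10844 genes 1323 were called lower and 1642 higher at 0 h, and 979 lower at 5 h than at -18 h. Between 5 h and 0 h 286 of all genes were called higher and 164 lower. Of these 50, 21 were at least 0.8 log2 lower at 0 h but only 8 at both times, and all 8 read at least 0.4 higher at 5 h than at 0 h. The rule largely fixes the size of that difference, though not its direction. A gene that low at both times with closer pupal means would be a member unless its arrays overlapped. UQCR-6.4 of complex III averaged 9.17 ± 0.19 at -18 h, 6.49 ± 0.31 at 0 h and 7.51 ± 0.24 at 5 h (SD, n = 7, 7 and 3). Its rise of 1.02 after 0 h was called (limma adjusted p = 0.000369), as was that of COX7B by 0.64 (adjusted p = 0.000641). The members sun and COX5B lay just within the limit, 0.39 higher at 5 h than at 0 h each, and the subunit cype lay just outside it at 0.40.

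Of the ribosome, 5 of 26 measured cytosolic protein genes were members. RpL29 read 11.29 to 11.62 at -18 h (median 11.56), 9.38 to 10.41 at 0 h (median 10.06) and 10.31, 10.09 and 10.25 at 5 h. The spread among its 0 h arrays was wider than among the larval ones, and the groups stayed apart as the rule requires. RpS29 was the only one of the 5 to read lower at 5 h, with changes of -1.77 at 0 h and -2.14 at 5 h. The others were RpL32 (-1.34 and -1.13), RpS20 (-1.07 and -0.91) and RpL28 (-1.07 and -0.93). Of the 21 ribosomal protein genes that were no members, 17 were called lower and 0 higher at 0 h. For all 10844 genes these counts were 1323 and 1642. Of the 21, 4 were called higher at 5 h than at 0 h, as were 286 of all genes. RpL23, among these 4, averaged 10.73 ± 0.10 at -18 h, 10.20 ± 0.10 at 0 h and 10.90 ± 0.04 at 5 h (SD, n = 7, 7 and 3), a rise of 0.70 over 0 h (limma adjusted p = 1.79e-05).

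The deepest member tied to ribosome assembly was Nop10, part of the particle that modifies ribosomal RNA. It read 9.14 to 9.49 at -18 h (median 9.33), 6.68 to 7.49 at 0 h (median 7.08) and 7.02, 7.02 and 7.15 at 5 h. The pupal arrays all lay more than 1 log2 below the larval ones. The 3 subunits of the mitochondrial ribosome among the members, mRpL55, mRpL17 and mRpS18C, changed by -1.40, -1.11 and -0.86 at 0 h.

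Subunits of the vacuolar proton pump, which acidifies synaptic vesicles and lysosomes, made up 5 members. Vha14-1 read 8.88 to 9.19 at -18 h (median 9.04), 6.90 to 7.59 at 0 h (median 7.25) and 7.07, 7.01 and 7.20 at 5 h. Vha36-1 changed by -1.20 at 0 h and -1.39 at 5 h, VhaPPA1-1 by -0.96 and -1.06, and VhaM9.7-a by -0.94 and -0.84. VhaAC45RP, at -0.80 and -1.08, sat just inside the depth required. In 4 of the 5 the 5 h mean was the lower of the pupal means. Of the 12 listed pump genes that were no members, 8 were called lower and 0 higher at 0 h, among them Vha13 by 0.75 (limma adjusted p = 4.95e-08). Among all 10844 genes 1323 were called lower and 1642 higher at 0 h. VhaM9.7-b, a near relative of the member VhaM9.7-a, fell by 0.92 at 0 h and rose by 0.63 at 5 h against 0 h (limma adjusted p = 3.82e-08 and 0.00145).

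**Figure D3:**
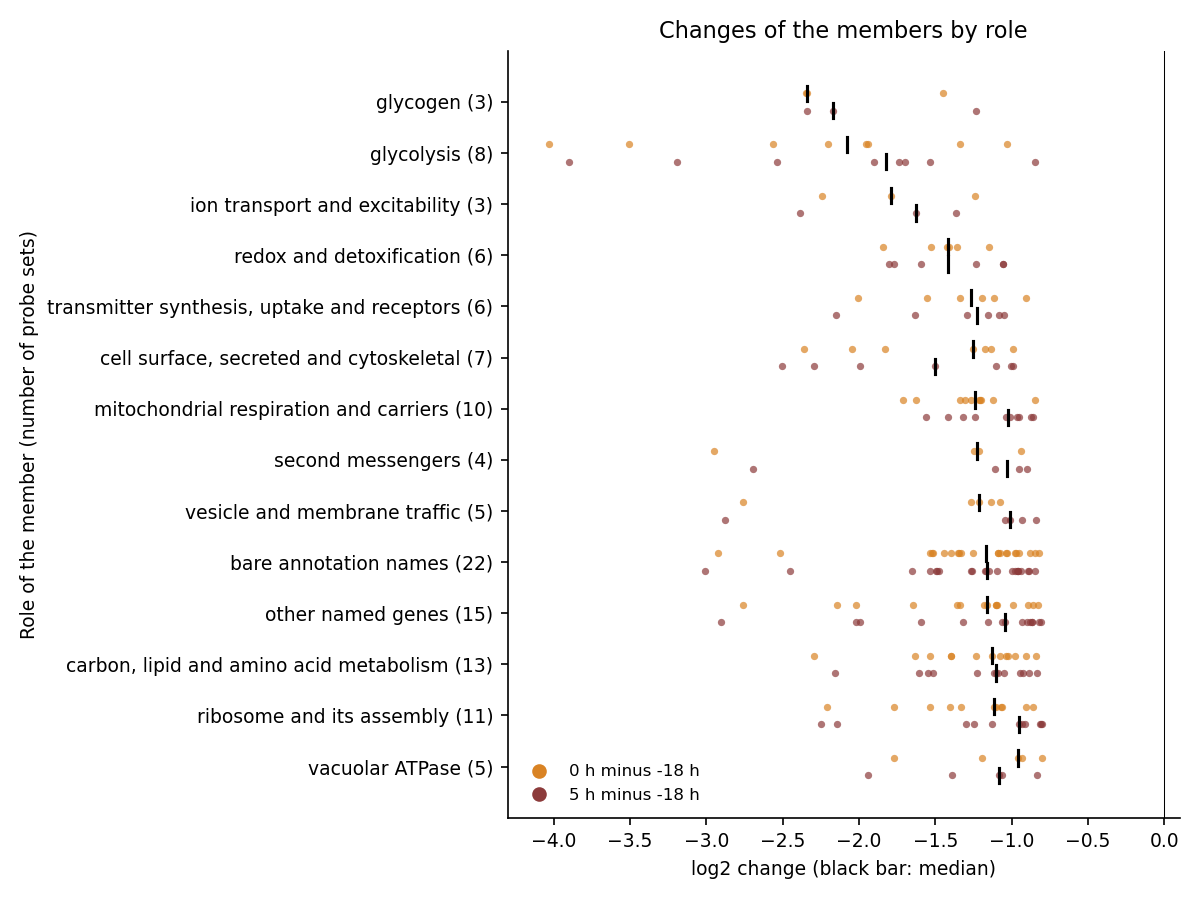
Log2 change of each of the 118 probe sets at 0 h (orange) and at 5 h (dark red), both against -18 h (horizontal axis), by the role of the gene (vertical axis, number of probe sets in brackets). Black bars are medians. Glycogen and glycolysis have the deepest medians, -2.34 and -2.08 at 0 h, and the vacuolar ATPase the shallowest, -0.96. Roles were assigned after the members were known.

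Of cholinergic transmission, ChT and ChAT were members. Of 11 listed genes of transmitter synthesis and handling that were no members, limma called 1 lower and 2 higher at 0 h. Their median change was 0.01. Among all 10844 genes 1323 were called lower and 1642 higher at 0 h. ChT, named as a choline transporter, read 7.04 to 8.17 at -18 h (median 7.68), 5.34 to 5.91 at 0 h (median 5.64) and 5.62, 5.48 and 5.36 at 5 h. Both probe sets of ChAT, the enzyme that makes acetylcholine, were members. One changed by -1.34 at 0 h and -1.30 at 5 h and the other by -1.20 and -1.09. The receptor subunit gene nAChRbeta1 changed by -1.12 and -1.15. Ace, the enzyme that degrades acetylcholine, went the opposite way. It averaged 9.997 ± 0.34 log2 in the 0 h arrays and 7.52 ± 0.28 in the larval arrays (SD, n = 7 each), a rise of 2.48 (limma adjusted p = 1.78e-11), and stood 2.68 above -18 h at 5 h (adjusted p = 5.32e-10). It was called higher at 0 h, where 13.6% of all probe sets were. nAChRalpha2, another receptor subunit gene, rose by 1.95 at 0 h (adjusted p = 7.54e-13).

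Of the amine genes, Ddc, which makes dopamine and serotonin, changed by -1.55 at 0 h and -1.64 at 5 h. Dop1R1, a dopamine receptor that these neurons use in learning, read 4.39 to 5.31 at -18 h (median 4.77), 3.68 to 4.06 at 0 h (median 3.81) and 3.81, 3.73 and 3.55 at 5 h. Ac76E, an adenylyl cyclase, read 5.38 to 6.59 at -18 h (median 6.09), 2.75 to 3.27 at 0 h (median 3.04) and 3.14, 3.24 and 3.40 at 5 h. Its larval arrays lay well above the lower quartile of all values and its pupal arrays at or below it. The fold of 7.71 at 0 h may therefore be a lower bound. The learning cyclase rut changed by 0.27 at 0 h (limma adjusted p = 0.0761) and 0.06 at 5 h (adjusted p = 0.793). The cyclase Ac78C did not pass at 0 h (0.21, adjusted p = 0.208) and was 0.65 lower at 5 h than at -18 h (adjusted p = 0.00239). Nca, a neurocalcin, changed by -1.25 and -0.90. The member probe set of Pka-R1, a regulatory subunit of protein kinase A, changed by -1.21 and -0.95.

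Among 26 genes of cyclic AMP and calcium signalling that were no members, 3 were called lower and 3 higher at 0 h, and their median change was -0.02. The receptor list (37 genes that were no members) gave 6 lower and 3 higher, and the channel list (40) 6 lower and 6 higher. Over all 10844 genes 1323 were called lower and 1642 higher at 0 h, so the counts of these lists were not read as a result.

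Of ion transport genes, nrv3, a beta subunit of the sodium pump, read 8.31 to 9.12 at -18 h (median 8.76), 6.09 to 7.33 at 0 h (median 7.08) and 7.18, 7.20 and 6.82 at 5 h. Its relative nrv1 averaged 7.62 ± 0.22 in the 0 h arrays and 4.68 ± 0.42 in the larval arrays (SD, n = 7 each), a rise of 2.94 (limma adjusted p = 3.51e-12), with 7.98 ± 0.16 at 5 h (n = 3). The member probe set of kcc, a potassium chloride cotransporter, read 6.41 to 7.50 at -18 h with larval array 7 lowest, 4.38 to 5.27 at 0 h and 4.44, 4.92 and 4.89 at 5 h. unc79, an auxiliary subunit of the sodium leak channel, changed by -1.24 and -1.37. Its partner unc80 fell by 0.28 at 0 h (adjusted p = 0.0284), and the channel gene na changed by 0.12 (adjusted p = 0.367).

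Of vesicle traffic, Rab27, a small GTPase of secretory vesicles, read 7.48 to 8.67 at -18 h (median 8.48), 5.06 to 6.06 at 0 h (median 5.33) and 5.42, 5.22 and 5.38 at 5 h. Larval arrays 5 and 6 were lowest at 7.49 and 7.48 and still more than 1 log2 above every pupal array. Rab26, AP-2sigma, gammaSnap1 and EMC4 changed by -1.08 to -1.27 at 0 h. Rab27 was the only member among 30 listed genes of the synaptic vesicle and active zone. Of the other 29, 9 were called lower and 3 higher at 0 h, with a median change of -0.06. Among all 10844 genes 1323 were called lower and 1642 higher at 0 h. The vesicular transporter prt left the group through a further fall. It fell by 2.59 at 0 h against -18 h and again changed by -1.73 at 5 h against 0 h (limma adjusted p = 3.55e-11 and 1.02e-05), where 1.42% of all probe sets were called lower.

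At the cell surface and in the cytoskeleton the largest change was that of 1 probe set of futsch, the microtubule-associated protein of axons and synapses. It read 7.52 to 8.29 at -18 h (median 8.18), 5.43 to 5.77 at 0 h (median 5.65) and 5.59, 5.58 and 5.28 at 5 h. dpr5, a surface protein of the immunoglobulin family, changed by -2.05 at 0 h and -2.29 at 5 h, and the tetraspanin Tsp42Eo by -1.83 and -1.996. The tetraspanins Tsp96F and lbm changed by -1.18 and -0.99 at 0 h, and the imaginal disc growth factors Idgf4 and Idgf6 by -1.14 and -1.26. None of 60 listed genes of axon guidance and adhesion was a member, which is not read as a result, since members were 114 of all 10844 genes. Of the 60, 2 were called lower and 14 higher at 0 h, where 1323 and 1642 of all 10844 genes were.

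**Figure D4:**
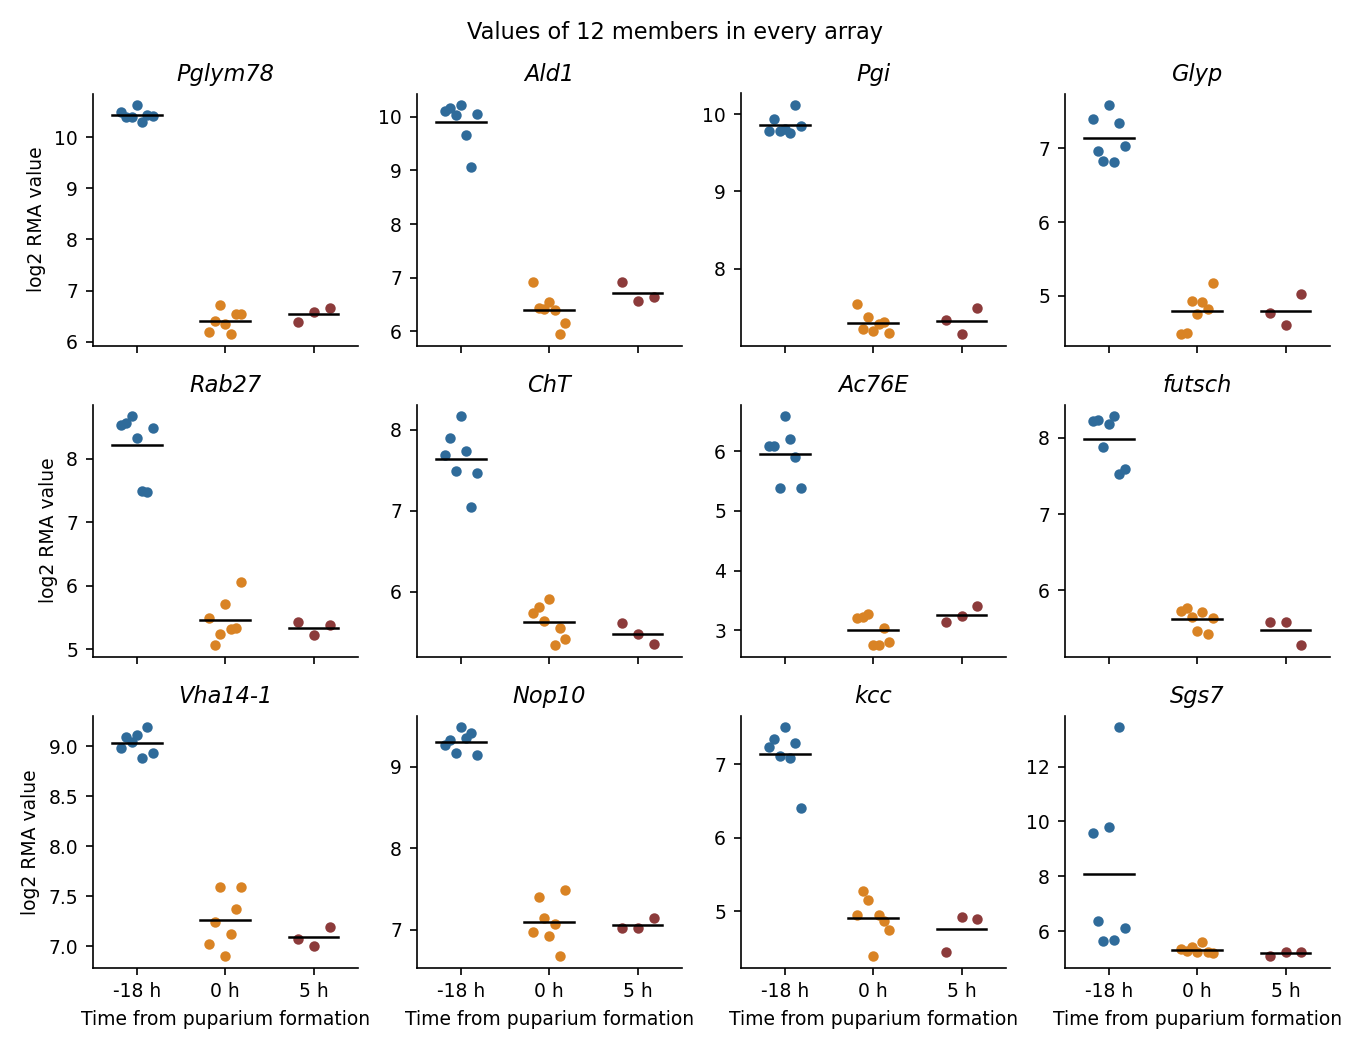
Log2 RMA value (vertical axis, own scale in each panel) of 12 member probe sets in every array at -18 h (n = 7), 0 h (n = 7) and 5 h (n = 3). Points are arrays and lines are group means. In every panel but Sgs7 the larval arrays stand clear of the pupal ones, while Sgs7 ran from 5.62 to 13.44 at -18 h with its lowest larval value next to the pupal ones.

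Genes of redox balance and detoxification made up 6 members with a median change of -1.42 at both times. Grx1, a glutaredoxin, read 7.46 to 7.91 at -18 h (median 7.51), 5.28 to 6.26 at 0 h (median 5.82) and 5.98, 5.76 and 5.87 at 5 h. GstD1, a glutathione S-transferase, read 7.99 to 9.57 at -18 h with larval array 6 highest, 6.84 to 7.23 at 0 h and 7.02, 7.86 and 7.28 at 5 h. Array 2 of the 5 h group, at 7.86, came close to the lowest larval array. The remaining 4 were GstE2, GstD11, Cyp9f2 and maf-S, the small Maf partner of stress-response factors, with changes of -1.15 to -1.53 at 0 h.

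The other 15 members with a proper name shared no role. MFS9, of the major facilitator family of transporters, changed by -2.02 at 0 h and -1.99 at 5 h, and Fkbp12, an immunophilin that binds calcium release channels, by -1.34 and -1.15. Diap2, a caspase inhibitor, changed by -1.18 and -1.07. l(2)efl, related to the small heat shock proteins, read 6.56 to 6.86 in larval arrays 1 to 5 and 8.78 and 8.33 in larval arrays 6 and 7, against 4.76 to 5.45 over all pupal arrays. With larval arrays 2 and 3 as the only larval arrays its change at 0 h was -1.53 rather than -2.14. A further 21 genes with bare annotation names gave 22 member probe sets. The deepest were CG15353, at -2.92 and -3.01 in one probe set and -1.35 and -1.48 in the other, and CG7607, at -2.52 and -2.45. CG15916 changed by -1.53 and -1.49, and CG7381 by -1.44 and -1.65. No role is given to these genes.

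Other probe sets of the same genes did not all move with the members. Of the 114 genes 4 had a pair of member probe sets, namely ChAT, Men, porin and CG15353, and 15 had 17 further probe sets that were no members. At 0 h 13 of the 17 were lower than at -18 h by sign, and limma called 6 lower and 0 higher. Their median change at 0 h was -0.20, while the member probe sets of the same genes had a median of -1.15. The 2 other probe sets of futsch changed by -0.00 and 0.02 at 0 h (limma adjusted p = 0.991 and 0.878), against -2.36 for the member. That of kcc changed by 0.12 (adjusted p = 0.287), against -2.24. Those of Pka-R1 changed by -0.20 and -0.18 and that of ACC by -0.22. Of the 17, those of Sdb and 1 of Pka-R1 lay in the lower quartile at all times, where a change may not be visible. In CG7381, VhaPPA1-1, Cyp9f2, CG31221, gammaSnap1 and CG1090 the other probe set was called lower at 0 h as well, deepest in CG7381 at -1.34 (limma adjusted p = 5.94e-07). In futsch, kcc, ACC, Pka-R1, CG32428, ome, rib, CG15771 and Sdb the member probe set alone was.

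**Figure D5:**
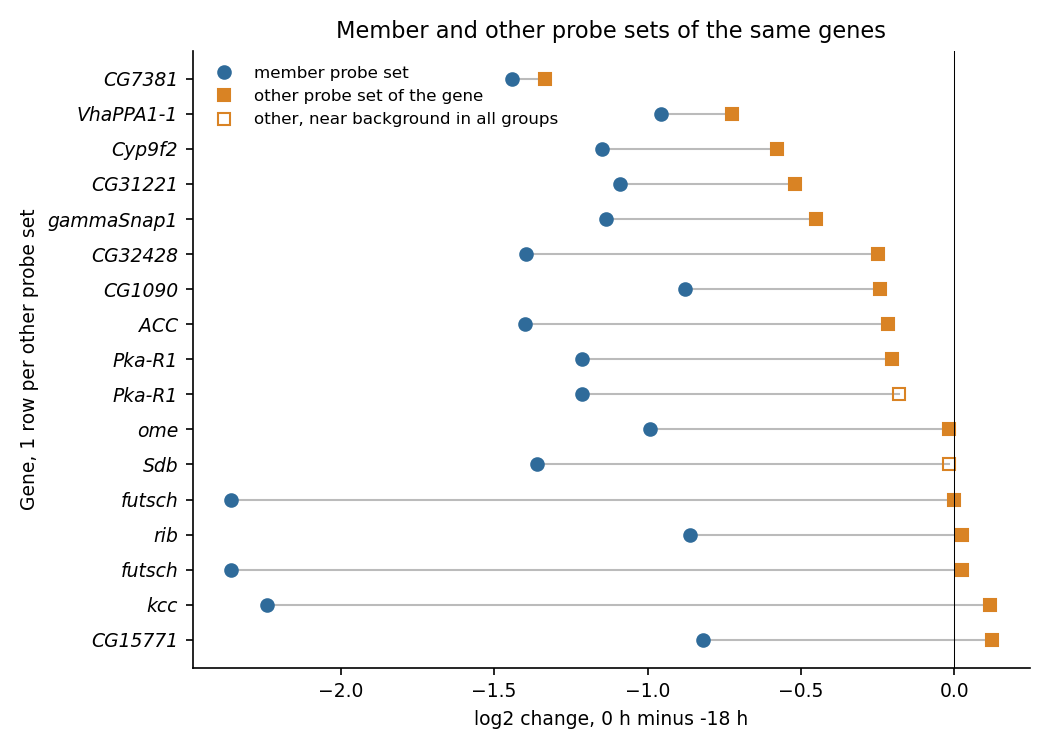
Log2 change at 0 h against -18 h (horizontal axis) of member probe sets (circles) and of the 17 other probe sets of the same genes (squares, 1 row each). Open squares mark the 2 other probe sets that lay near background at all times. The other probe sets lie to the right of the members in every row, at about 0 for both of futsch and at 0.12 for kcc.

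Several values moved with the larval stage beside the members. The array's 18S ribosomal RNA control probe set at the 3-prime end averaged 9.18 ± 0.13 at -18 h, 7.60 ± 0.35 at 0 h and 7.62 ± 0.07 at 5 h (SD, n = 7, 7 and 3). The middle one averaged 8.33 ± 0.20, 7.33 ± 0.40 and 6.70 ± 0.05 in the same order of times. Both were thus lower in the pupa by amounts like those of the median member, and their part in the members' changes was not tested. Markers of other tissues were uneven among larval arrays. The array mean of 16 salivary genes lay between 3.85 and 7.38 log2 in larvae, 3.79 and 3.90 at 0 h, and 3.76 and 3.80 at 5 h. Of the 16, 1 was a member and 3 lay in the lower quartile at all times. The mean of 16 muscle genes lay between 4.85 and 6.02 in larvae, 4.86 and 4.95 at 0 h, and 4.89 and 5.00 at 5 h. For 6 fat body genes the limits were 6.65 and 8.50, 6.07 and 7.65, and 7.27 and 8.55 in the same order of times. These 6 stood lower at 0 h and higher at 5 h by their median change, -0.44 and 0.22. None of the muscle, fat body, glia, neuroblast, hemocyte, cuticle and photoreceptor genes was a member. Members were 114 of all 10844 genes, so their absence from lists this short is not read as a result. The 16 glia genes lay between 5.18 and 5.53, 5.16 and 5.55, and 5.41 and 5.59 at the 3 times, with 0 in the lower quartile throughout. By limma 3 of the 16 were called lower and 3 higher at 0 h, with a median change of -0.08. For all 10844 genes these counts were 1323 and 1642. The glial factor repo, chosen after its values were seen, averaged 7.70 ± 0.46 in the 0 h arrays and 6.66 ± 0.39 in the larval arrays (SD, n = 7 each). The 17 neuroblast genes lay between 4.87 and 5.09, 4.61 and 4.98, and 4.70 and 4.74. The 14 hemocyte genes lay between 3.81 and 4.62, 3.80 and 3.96, and 3.93 and 4.10, with 5 in the lower quartile throughout. Cuticle and photoreceptor means stayed between 4.64 and 5.24 and between 3.88 and 4.16 over all arrays. The rule fixes the direction of the members in any subset of larval arrays, and it chose them by size on these same arrays. The counts that follow are therefore a description. With larval arrays 2 and 3 alone, a choice made after the data were seen, 106 of the 118 were lower by at least 0.8 log2 at each pupal time. With larval arrays 1 and 4 alone, 115 and 113 were lower by that amount at 0 h and 5 h. The part of RNA from other cell types in the members' changes was not tested.

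The member that depended on single arrays was Sgs7, a glue protein of the salivary gland. It read 9.57, 9.80 and 13.44 in larval arrays 1, 4 and 6 and 5.62 to 6.38 in the other larval arrays, against 5.20 to 5.61 at 0 h and 5.08, 5.22 and 5.25 at 5 h. Its change of -2.76 at 0 h was -0.62 without larval arrays 1, 4 and 6. The glue gene Sgs3 missed the rule by an overlap of 0.0089 log2. CG14302 (-1.35 at 0 h) read 9.44 in larval array 5 and 6.31 to 7.32 in the other larval arrays, and changed by -2.08 among the arrays with the lower spike-in signal. CG16704 changed by -0.98, and by -0.34 with larval arrays 1 and 4 as the only larval arrays. Of the other members, ACC, Acbp2 and l(2)efl alone moved by over 1.5 times in fold under the alternatives tried, as given above.

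The rule did not use gene length, and the members' median length was close to that of the array while short genes were a larger and long genes a smaller share. The median member gene spanned 2728.5 bp in the RefSeq Release 6 annotation, against 2745 bp over all probe sets with 1 symbol. Genes of at most 1000 bp were 22.9% of members and 12.3% of all, and genes over 10000 bp were 14.4% and 21.5%. The 28 probe sets that read higher again at 5 h had a median length of 742.5 bp, and the 26 that read lower still one of 8974.5 bp. Among the 28 were UQCR-6.4, ND-MWFE, COX8, MtnA and CAH1, and among the 26 prt, Rdl, br and Men-b. The eIF4a control probe sets, 3-prime minus middle, gave 3.03 ± 0.08 at -18 h, 2.81 ± 0.20 at 0 h and 2.58 ± 0.01 at 5 h (SD, n = 7, 7 and 3). The part of this shift along transcripts in the members' changes was not tested. CG1090 and Sfxn1-3 were the only members next to each other in the genome, and wac and mRpL17 flanked 1 gene, Tudor-SN, which changed by 0.47 at 0 h.

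At the edges of the rule Ip259 (-0.80 at 5 h) and VhaAC45RP (-0.80 at 0 h) were the last members by depth, and Pfdn5 (-0.80) and UQCR-14 (-0.79) the first outside, both at 5 h. By overlap Sgs7 and Hex-A were last and PPO2, overlapping by 0.0019 log2, and Sgs3 the first outside. A further 32 probe sets met all conditions but that on overlap. The same rule turned upward gave 213 probe sets, with median changes of 1.18 at 0 h and 1.16 at 5 h. No test between the lowered and the raised group was made.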

How the data were processed

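Expression was measured on 17 arrays of captured neurons. The file holds log2 RMA values, which the authors deposited and which, per the submitters' processing notes, came from Affymetrix Expression Console. Tool versions and whether the arrays were normalised as 1 set are not stated there. RMA gives arrays a common distribution, so changes are relative to the whole array. Every column was mapped by the labels and used as deposited. The few arrays, and the 3 at 5 h most of all, set the precision, since arrays have no read depth.

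Of 14010 probe sets, 44 controls were left out of the fits. Symbols came from the platform annotation, updated through the RefSeq Release 6 gene table, which also gave lengths and neighbours. No coordinates or sequences are printed. Probe sets with several symbols (327) or none (1196) could not be members. The members, gene lists and naming rule were chosen with earlier results of these data known, and roles were assigned after the members were known. From the marker lists 3 mistaken entries were removed, Vkg from glia and Lcp65Ag3 and Fad2 from fat body, and 13 entries matched no gene. In lists each of 10844 genes was represented by its probe set with the highest mean. Over these genes limma called 1323 lower and 1642 higher at 0 h against -18 h.

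A model with 3 groups was fitted to all 13966 probe sets by lmFit and eBayes of limma 3.58.1, run under R 4.3.3. Tests were two-sided, with Benjamini-Hochberg adjustment over all probe sets and a threshold of 0.05. The code was tested on simulated data. Named members are the 24 deepest with a proper symbol, the 4 deepest with a bare name, up to 4 per list, the 3 highest at -18 h and in the pupa, 2 on each side of a threshold, and up to 6 genes whose other probe set changed little or upward. Other genes were chosen after their values were seen. Deviations of same-numbered arrays correlated between -0.28 and 0.37 (0 h with -18 h) and between -0.10 and 0.14 (5 h with -18 h). The main fit did not pair arrays by number, though such correlations cannot exclude pairing in collection or processing. Arrays were also split by mean spike-in signal at 9.10, the middle of the widest gap. Alternatives were quantile normalisation, median centring, single arrays or larval subsets left out, spike-in sets, blocks, a robust fit, dim probe sets dropped and other thresholds. The subsets of larval arrays 2 and 3 and of 1 and 4 were added after the data were seen.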

Additional observations from a re-analysis of the deposited data

Results flagged for a closer look

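In 128 groups of values at -18 h or 0 h (named members and the median over members), 9 held 1 array set apart from the rest by Dixon's criterion, which chance does in about 5% of groups. Larval array 6 was highest for GstD1 at 9.57 (next array 8.48) and for Sdb at 6.56 (next 5.41). Larval array 2 was highest for Pka-R1 at 6.28 (next 5.92) and lowest for VhaAC45RP at 9.003 (next 9.21). Larval array 4 was highest for VhaPPA1-1 at 10.05 (next 9.53). Larval array 5 was lowest for one probe set of porin at 10.59 (next 10.76), and larval array 7 lowest for kcc at 6.41 (next 7.09). At 0 h array 2 was lowest for Pfk at 5.26 (next 5.56) and array 7 highest for RpL28 at 6.90 (next 6.58). All of these arrays kept to their side of the gap between larva and pupa, as the rule requires.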

How the results depend on the processing

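The rule sets every pupal array below every larval one, so leaving out arrays cannot turn a member's direction. Sizes and counts rest on the values that chose the members, so they are given as a description. Of 3717 values of named members under 30 alternatives, 85 moved beyond the spread of arrays. Part of the 3717 could not move, so the share that moved is no measure of stability. Leaving out a 5 h array cannot alter the change at 0 h, nor a 0 h array the change at 5 h. The robust fit and the dropping of dim probe sets leave the changes as they were. The number of probe sets meeting the rule was 118, and it was 219 with larval arrays 1 and 4 alone (112 shared), 74 with a required fall of 1 log2 and 205 with one of 0.6. It was 116 to 129 with single arrays left out. The median member change was -1.41 at 0 h and -1.34 at 5 h with larval arrays 1 and 4 alone. With single arrays left out it was -1.29 to -1.23 at 0 h and -1.19 to -1.12 at 5 h, and the 5 h minus 0 h median was 0.063 to 0.089. Members called lower were 118 in each such fit at 0 h and 117 to 118 at 5 h. Between 5 h and 0 h, where 0 were called, 2 were called after median centring and in the lower spike-in set. There 1 was called with dim probe sets dropped, quantile normalisation, the spike-in set as a block, larval arrays 1, 4 and 6 or 1, 4, 6 and 7 left out, or larval arrays 2 and 3 alone. With single arrays left out 0 to 2 were called, and these were COX5B, Pcd or CG9485 throughout. Over all probe sets 3568 were called at 0 h, 2799 at 5 h and 527 between 5 h and 0 h. These were 2244 (higher spike-in set) and 2292 (larval arrays 1 and 4 alone) at 0 h, and at an adjusted p of 0.01 they were 1783 at 5 h and 264 between 5 h and 0 h. With single arrays left out they were 3270 to 3953, 1938 to 3274 and 304 to 562. The cause of these shifts was not tested. The higher spike-in set holds no 5 h array, so it gave no value at 5 h. The replicate block used numbers not shown to pair the samples. It gave medians of -1.25, -1.18 and 0.06, member calls of 118, 117 and 0, and 3623, 2682 and 399 calls over all probe sets. Own number correlated best in 1 of 7 of the 0 h arrays. Sgs7 changed most with the arrays used, with a fold at 0 h of 6.77, of 3.65 without larval array 6 and of 20.1 in the lower spike-in set. Values near background may limit what could be seen in the 5 members with both pupal means in the lower quartile.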

Other observations

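Several gene lists held no member, which is not read as a result, since members were 114 of all 10844 genes. The counts of these lists stand beside 1323 genes called lower and 1642 called higher at 0 h among all 10844. Of 26 ecdysone response genes, 3 were called lower and 10 higher at 0 h by limma. EcR, the ecdysone receptor, fell by 0.64 at 0 h (limma adjusted p = 0.00887) and changed by -1.57 at 5 h against -18 h (adjusted p = 2.56e-05). The transcription factor gene vri rose by 2.42 at 0 h (adjusted p = 5.24e-11). Of 26 neuropeptide and peptide processing genes, 7 were called lower and 4 higher at 0 h. The peptide gene Crz fell by 1.29 at 0 h (adjusted p = 0.00248), and Phm, a peptide amidating enzyme, rose by 0.97 (adjusted p = 1.22e-06). Of 13 metabolic regulators 1 was called lower and 4 higher at 0 h. ERR, which drives glycolytic genes in the fly larva, averaged 5.32 ± 0.34 in the 0 h arrays and 4.77 ± 0.16 in the larval arrays (SD, n = 7 each), a rise of 0.56 (adjusted p = 0.00115). The hypoxia factor gene sima changed by -0.14 (adjusted p = 0.214) at a level in the lower quartile.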
